A study of Mus musculus with 31 samples.

Results

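Mast cells and basophils are rare cells of allergy and defence against parasites, and 9 genes known from them were followed here in cultured dendritic cells and in spleens. The genes are Prss34, Mcpt8, Cpa3, Fcer1a, Ms4a2, Gata2, Kit, Hdc and Il4. They were taken from a list of symbols, and all 9 were found among the 29120 gene IDs counted in the 31 libraries. The libraries came from C57BL/6 mice, either wild-type or Gpr34-/-. Gpr34 is a G protein-coupled receptor, and the series asks about the regulation of its expression.

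The dendritic cells were grown from the bone marrow of male mice aged 8 to 16 weeks, over 10 days with the supernatant of a GM-CSF-producing line. On day 11 a part of the cultures received LPS, a component of bacterial walls, for 8 h, and the cultures without LPS are called naive. Groups were LPS-treated cultures labelled knockout, LPS-treated wild-type cultures, naive cultures labelled knockout and naive wild-type cultures (n = 3 each), followed by 9 knockout and 10 wild-type spleens of mice aged 12 weeks. The labels name no sorting step, so the cultures may hold cells other than dendritic cells, and they do not say how the Gpr34 allele was made. Replicates are numbered there but not tied to separate animals, and the p-values then speak only for the scatter among the libraries at hand, some of which may be technical.

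Mast cells and basophils bind IgE through a receptor whose alpha chain is encoded by Fcer1a and whose beta chain, which strengthens the signal, is encoded by Ms4a2. When antigen joins the bound IgE, they release granules that hold histamine, made by histidine decarboxylase (Hdc), and proteases such as carboxypeptidase A3 (Cpa3) and the basophil proteases encoded by Mcpt8 and Prss34 in mice. Gata2 is a transcription factor of both lineages and of blood progenitors, Kit is the receptor for stem cell factor on mast cells and progenitors, and Il4 encodes a cytokine that basophils, mast cells and T cells make. Prss34, Mcpt8, Cpa3, Fcer1a and Ms4a2 were therefore taken as the 5 defining genes, while Gata2, Kit, Hdc and Il4 are also known from other cells. In a bulk library, fewer cells of a type and less RNA per cell cannot be told apart.

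The regions around the start sites of Hdc and of 3 defining genes are shown because Hdc passed the test for LPS while Prss34, Cpa3 and Mcpt8, whose profiles over the cultures were among the most alike, did not. Each window holds 250 bases before and 50 bases after the start, from RefSeq on GRCm38.p6. Hdc lies at chr2:126618629-126618928 on the minus strand, Prss34 at chr17:25298144-25298443 on the plus strand, Cpa3 at chr3:20242132-20242431 on the minus strand and Mcpt8 at chr14:56085148-56085447 on the minus strand. Capitals mark matches on either strand to GATAA (the core that GATA factors bind), to TATAAA (a core promoter element) or to GGGGCGGGG (a GC box).
Hdc: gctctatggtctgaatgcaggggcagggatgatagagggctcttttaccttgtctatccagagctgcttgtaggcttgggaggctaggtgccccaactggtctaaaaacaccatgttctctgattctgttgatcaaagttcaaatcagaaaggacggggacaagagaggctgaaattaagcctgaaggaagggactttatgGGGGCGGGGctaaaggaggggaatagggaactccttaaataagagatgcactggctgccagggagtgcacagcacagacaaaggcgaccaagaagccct
Prss34: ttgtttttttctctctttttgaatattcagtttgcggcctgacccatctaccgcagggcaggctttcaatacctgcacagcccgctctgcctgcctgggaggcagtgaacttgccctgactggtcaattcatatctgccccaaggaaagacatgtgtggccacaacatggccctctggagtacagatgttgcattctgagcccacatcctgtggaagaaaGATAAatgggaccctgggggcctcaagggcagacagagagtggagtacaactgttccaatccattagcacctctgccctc
Cpa3: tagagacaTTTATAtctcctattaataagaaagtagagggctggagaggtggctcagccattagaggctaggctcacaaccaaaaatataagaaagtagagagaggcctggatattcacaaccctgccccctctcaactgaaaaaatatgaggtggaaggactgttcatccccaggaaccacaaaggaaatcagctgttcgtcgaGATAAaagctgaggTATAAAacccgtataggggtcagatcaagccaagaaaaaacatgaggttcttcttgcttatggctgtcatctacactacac
Mcpt8: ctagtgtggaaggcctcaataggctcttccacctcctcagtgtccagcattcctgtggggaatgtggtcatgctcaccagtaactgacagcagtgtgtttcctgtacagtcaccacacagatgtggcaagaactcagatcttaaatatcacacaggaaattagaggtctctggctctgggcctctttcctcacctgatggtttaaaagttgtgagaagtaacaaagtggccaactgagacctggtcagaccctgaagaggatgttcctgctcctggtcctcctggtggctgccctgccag
Prss34 held GATAA 30 bases before its start, and Cpa3 held GATAA 45 bases and TATAAA 31 bases before its start, with a further TATAAA match on the other strand. The Hdc window held the GC box 49 bases before the start and no GATAA, and the Mcpt8 window held none of these motifs. No marked matches overlapped. All 9 genes had a window, and the 12 windows of their start sites were searched in the same way: 5 held GATAA, those of Cpa3, Fcer1a, Il4, Ms4a2 and Prss34. Of all 32851 windows, 25.4% held GATAA, 13.6% TATAAA and 11.4% the GC box. An AP-1 site (TGA and TCA with any 1 base between them) stood in 7.81% of all windows and GGGACTTTC, an NF-kB site, in 0.353%, and no window of the 9 genes held either. A match is a description of the letters only.

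Gpr34 itself was counted in each library to check the labels. After LPS, replicates 2, 3 and 4 labelled knockout gave 0, 117 and 104 Gpr34 counts, against 125, 65 and 65 in wild-type replicates 1, 2 and 3. Without LPS, replicates 2, 3 and 4 labelled knockout gave 0, 120 and 4 Gpr34 counts, against 324, 199 and 226 in wild-type replicates 1, 2 and 4. In TMM-scaled CPM (counts over library size, scaled by TMM, edgeR's factor for library composition), LPS-treated replicates 3 and 4 labelled knockout, at 2.34 and 2.22 CPM, lay within the LPS-treated wild-type range of 1.46 to 3.44 CPM. Naive replicate 3 labelled knockout, at 1.48 CPM, lay below the naive wild-type range of 3.17 to 4.82 CPM but far above the other naive libraries of its label. The 6 cultures are therefore called "labelled knockout" throughout. All 9 spleens labelled knockout also held Gpr34 reads, 42 to 156 counts (0.398 to 1.66 CPM), against 308 to 986 counts (4.13 to 9.02 CPM) in wild-type spleens. These spleen groups did not overlap, and "knockout spleen" is used for the label. Since the deleted part of the gene is not given in the labels, reads from outside it cannot check a label. Without the 3 cultures labelled knockout that held over 100 Gpr34 counts, 1 LPS-treated and 2 naive cultures of that label remain. Each value given without those 3 that involves LPS-treated cultures labelled knockout therefore rests on replicate 2 alone, which the fit takes to vary like the other groups. Dendritic cell libraries held 38998746 to 74164853 counts and spleens 56834377 to 133277070. The 10 genes of a dendritic cell marker list summed to 12674 to 23840 CPM over the 12 cultures. The same list summed to 12284 to 28327 CPM in the spleens, so it shows that the markers were present in the cultures but does not set them apart from spleen.

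Hdc was the member that LPS changed most. In the LPS-treated cultures it stood at 149, 131 and 158 CPM in replicates 2, 3 and 4 labelled knockout and at 165, 149 and 159 CPM in wild-type replicates 1, 2 and 3. In the naive cultures it stood at 1.72, 3.45 and 2.08 CPM in replicates 2, 3 and 4 labelled knockout and at 1.31, 1.93 and 1.87 CPM in wild-type replicates 1, 2 and 4. Every LPS-treated library was above every naive library, and the highest naive value was that of replicate 3 labelled knockout. The log2 fold change of LPS over naive was 5.90 (SE 0.26) in cultures labelled knockout, a fold of 59.6, with an adjusted p of 2.72e-07 from edgeR's quasi-likelihood test. In wild-type cultures it was 6.53 (SE 0.27), a fold of 92.5, with an adjusted p of 1.56e-07 in the same test. The difference between these effects, the interaction of genotype and LPS, was -0.63 (95% interval -1.32 to 0.05, adjusted p = 0.9999 in edgeR), so it was not resolved. For the interaction 0% of genes passed in edgeR, 678 had an unadjusted p under 0.05, and DESeq2 called 10 higher and 11 lower with no member. Without the 3 libraries labelled knockout that held over 100 Gpr34 counts, which leaves 1 LPS-treated culture of that label, the interaction of Hdc was -0.25.

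**Figure D1:**
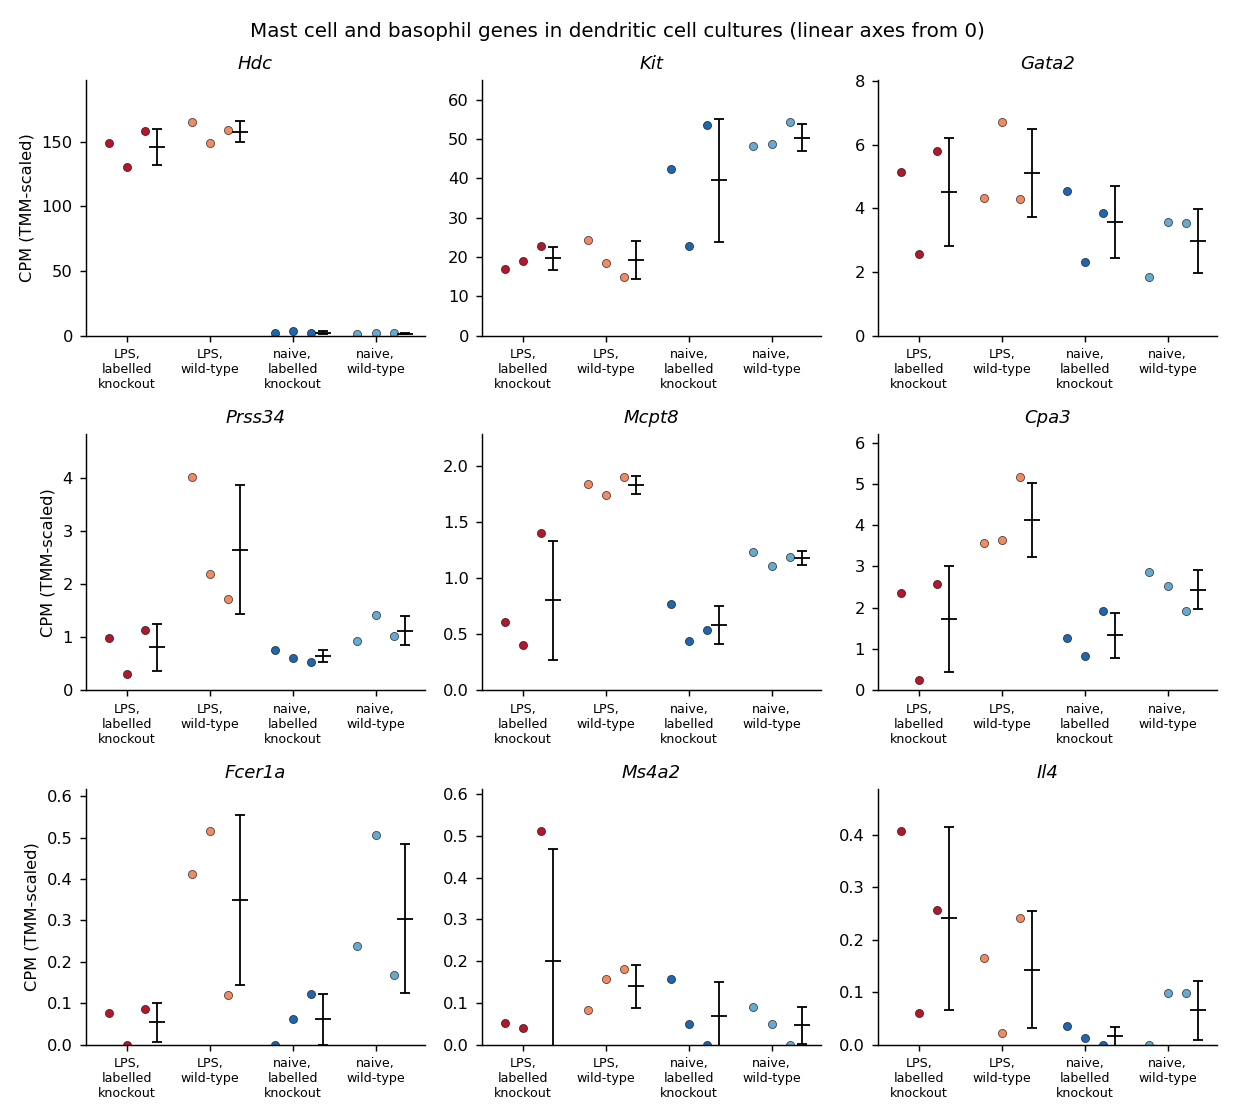
Level of the 9 genes in the 12 dendritic cell cultures, in TMM-scaled CPM on linear axes from 0, with 1 point per library and a bar for the mean and SD of each group of 3 (lower ends of bars that reach below 0 are not drawn). Hdc lies at 131 to 165 CPM in the 6 LPS-treated libraries and at 1.31 to 3.45 CPM in the 6 naive libraries.

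Kit was lower in LPS-treated cultures. It stood at 17.0, 18.97 and 22.9 CPM in LPS-treated replicates 2, 3 and 4 labelled knockout, against 42.4, 22.7 and 53.5 CPM in naive replicates 2, 3 and 4 labelled knockout. In wild-type cultures it stood at 24.4, 18.5 and 14.9 CPM in LPS-treated replicates 1, 2 and 3, against 48.3, 48.6 and 54.2 CPM in naive replicates 1, 2 and 4. The wild-type groups did not overlap, as was so, with LPS lower, for 25.3% of all tested genes in TMM-scaled CPM. The groups labelled knockout overlapped through naive replicate 3. They did not overlap with the plain library size, for which the share of all genes was not counted. The log2 fold change was -1.01 (SE 0.28, adjusted p = 0.0185, edgeR) in cultures labelled knockout and -1.38 (SE 0.28, adjusted p = 0.00289, edgeR) in wild-type cultures. The call in cultures labelled knockout was lost without naive replicate 2 (adjusted p = 0.0550), naive replicate 4 (0.0791), LPS-treated replicate 2 (0.0656) or LPS-treated replicate 3 (0.0553), in edgeR. Naive replicate 3 labelled knockout stood apart from the other naive libraries in other genes too: its 8 LPS response genes summed to 232 CPM, against 90.7 and 110 CPM in the other naive libraries labelled knockout and 92.6 to 107 CPM in the naive wild-type libraries. Without the 3 libraries labelled knockout that held over 100 Gpr34 counts, this one among them, the log2 fold change of Kit in cultures labelled knockout was -1.53, with 1 LPS-treated culture against 2 naive ones. Beside Kit, 13 haematopoietic progenitor markers summed to 68.9 to 75.9 CPM in LPS-treated libraries labelled knockout and 115 to 151 CPM in naive ones, and to 76.0 to 81.8 CPM in LPS-treated and 135 to 139 CPM in naive wild-type libraries. Of the 11 tested markers 4 fell in each genotype, while 28.7% of all genes passed in cultures labelled knockout and 33.9% in wild-type cultures, in either direction. Lmo2 made most of the sums, at 45.4 to 49.3 CPM in LPS-treated and 72.0 to 102 CPM in naive libraries labelled knockout. Their part in the change of Kit was not tested.

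Of the 8 members tested in dendritic cells, Hdc rose and Kit fell with LPS in each genotype, and the other 6 did not pass. Over all 16965 genes tested, 28.7% passed in cultures labelled knockout and 33.9% in wild-type cultures, and 2 of 8 is near those shares. Ms4a2 had too few counts to be tested, at 0 to 24 counts per library. The median log2 fold change of the 8 was 0.36 in cultures labelled knockout and 0.77 in wild-type cultures, beside -0.02 and -0.03 over all genes tested. With no composition factor applied, these medians over all genes moved to -0.35 and -0.44, and Hdc and Kit still passed in the same directions, at 5.57 and -1.35 in cultures labelled knockout and at 6.12 and -1.79 in wild-type cultures.

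Prss34, a basophil protease, stood at 4.02, 2.19 and 1.72 CPM in LPS-treated wild-type replicates 1, 2 and 3, against 0.922, 1.42 and 1.02 CPM in naive wild-type replicates 1, 2 and 4. These groups did not overlap in TMM-scaled CPM, but did with the plain library size. Its log2 fold change was 1.23 (SE 0.47) and did not pass in edgeR's fit of the 12 libraries (adjusted p = 0.0657). It passed in DESeq2 (adjusted p = 0.0421), with only the wild-type libraries in the fit (0.0411, edgeR), without LPS-treated replicate 3 labelled knockout (0.0216, edgeR) and without the 3 libraries labelled knockout that held over 100 Gpr34 counts (0.0393, edgeR). In wild-type cultures the log2 fold change was 0.63 (SE 0.41) for Mcpt8 and 0.76 (SE 0.62) for Cpa3, and neither passed (adjusted p = 0.272 and 0.383, edgeR). In cultures labelled knockout it was 0.34 for Prss34, 0.47 for Mcpt8 and 0.37 for Cpa3 (adjusted p = 0.648, 0.455 and 0.707, edgeR). In TMM-scaled CPM 5 members, Prss34, Mcpt8, Cpa3, Gata2 and Hdc, were higher in every LPS-treated than in every naive wild-type library. Of all tested genes, 25.6% did so on that scale. With the plain library size 2 members did, Mcpt8 and Hdc, and the share of all genes was not counted there.

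The sum of the 5 defining genes was taken as a measure of mast cell and basophil RNA that does not use Hdc. In LPS-treated cultures it was 4.09, 0.978 and 5.71 CPM in replicates 2, 3 and 4 labelled knockout and 9.93, 8.26 and 9.11 CPM in wild-type replicates 1, 2 and 3. In naive cultures it was 2.95, 1.99 and 3.11 CPM in replicates 2, 3 and 4 labelled knockout and 5.34, 5.63 and 4.31 CPM in wild-type replicates 1, 2 and 4. LPS-treated replicate 3 labelled knockout had the lowest sum of all 12 cultures, made of 49 counts with Fcer1a at 0, and still held Hdc at 131 CPM. Hdc thus stood at 134 times the defining sum in that library and at 36.5 and 27.7 times the sum in the other LPS-treated libraries labelled knockout. The ratio was 16.6 to 18.0 in LPS-treated wild-type libraries, 0.583 to 1.73 in naive libraries labelled knockout and 0.245 to 0.433 in naive wild-type libraries. The level of Hdc after LPS therefore spanned 131 to 165 CPM across libraries whose defining sum spanned 0.978 to 9.93 CPM. Cpa3 had the highest mean of the 5 genes in each culture group, and whether LPS changes them within cells was not tested. CPM is not scaled for length, and Hdc has 6389 exon bases against 998 to 2813 in the 5 genes.

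**Figure D2:**
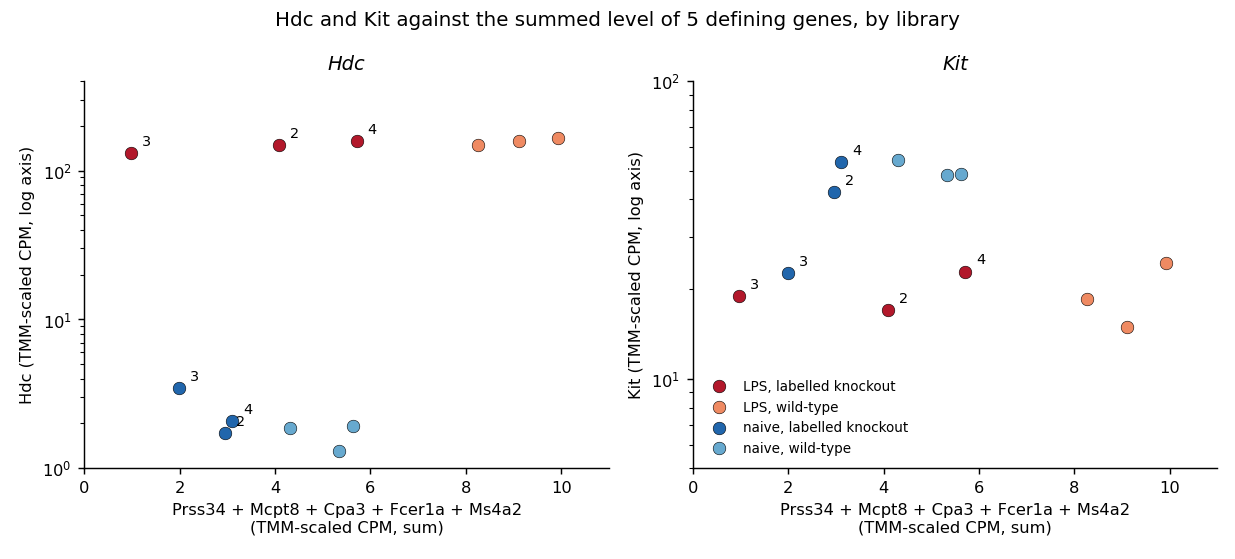
Hdc (left) and Kit (right) in each of the 12 cultures on a log axis, against the summed CPM of Prss34, Mcpt8, Cpa3, Fcer1a and Ms4a2 on a linear axis, with replicate numbers beside the libraries labelled knockout. Hdc stays between 131 and 165 CPM after LPS while the sum ranges between 0.978 and 9.93 CPM.

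The genes whose profile over the 12 cultures was most like that of Hdc, by the root mean square difference of centred log2 CPM among 11896 genes, were Lcn2 (0.25), Il1a (0.31), Il6 (0.31), Rsad2 (0.32) and Il12b (0.36). Lcn2 encodes an iron-withholding protein, Il1a, Il6 and Il12b encode inflammatory cytokines, and Rsad2 is an antiviral gene. For Cpa3 the most alike were Fdps (0.47), an enzyme of sterol synthesis, then Mcpt8 (0.62), Prss34 (0.63), Igkc (0.63) and H2afy2 (0.67). Candidates had a mean of at least 0.5 CPM, so Fcer1a, Ms4a2 and Il4 could not be listed. Of the 5 genes nearest to Cpa3, 2 were members. No other member rose with LPS as Hdc did, so none could be among the 5 nearest to Hdc. The measure keeps the size of each change, so only genes with a like rise with LPS could be near Hdc. Its list therefore restates its fold change.

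Prss34, Mcpt8, Cpa3 and Fcer1a had lower values in the cultures labelled knockout, without passing the edgeR test. Ms4a2, the other defining gene, was too rare to be tested, and its summed counts were not lower there. After LPS, Mcpt8 stood at 0.610, 0.399 and 1.41 CPM in replicates 2, 3 and 4 labelled knockout, against 1.84, 1.75 and 1.91 CPM in wild-type replicates 1, 2 and 3. In naive cultures it stood at 0.774, 0.443 and 0.535 CPM in replicates 2, 3 and 4 labelled knockout, against 1.23, 1.11 and 1.19 CPM in wild-type replicates 1, 2 and 4. The groups did not overlap in either state. Its log2 fold change of labelled knockout over wild-type was -1.18 (SE 0.42, adjusted p = 0.338, edgeR) after LPS and -1.02 (SE 0.42, adjusted p = 0.729, edgeR) in naive cultures.

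Prss34 stood at 0.991, 0.2995 and 1.13 CPM in LPS-treated replicates 2, 3 and 4 labelled knockout, all below the lowest LPS-treated wild-type value of 1.72 CPM. In naive replicates 2, 3 and 4 labelled knockout it stood at 0.756, 0.615 and 0.535 CPM, all below the lowest naive wild-type value of 0.922 CPM. Its log2 fold change was -1.71 (SE 0.48, adjusted p = 0.255, edgeR) after LPS and -0.82 (SE 0.47, adjusted p = 0.820, edgeR) in naive cultures. DESeq2 called the difference after LPS (adjusted p = 0.0368).

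Cpa3 stood at 2.36, 0.240 and 2.58 CPM in LPS-treated replicates 2, 3 and 4 labelled knockout, against 3.58, 3.65 and 5.17 CPM in LPS-treated wild-type replicates 1, 2 and 3. In naive cultures it stood at 1.27, 0.824 and 1.91 CPM in replicates 2, 3 and 4 labelled knockout, against 2.86, 2.54 and 1.92 CPM in wild-type replicates 1, 2 and 4. The naive groups touched at 1.91 and 1.92 CPM and overlapped with the plain library size. The log2 fold changes were -1.26 (SE 0.63, adjusted p = 0.481, edgeR) after LPS and -0.88 (SE 0.62, adjusted p = 0.892, edgeR) in naive cultures.

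Fcer1a, the IgE-binding chain, was near the limit of counting. After LPS, replicates 2, 3 and 4 labelled knockout gave 3, 0 and 4 Fcer1a counts, against 15, 23 and 4 in wild-type replicates 1, 2 and 3. The values of 4 were 0.0852 CPM in the culture labelled knockout and 0.121 CPM in the wild-type one. Naive replicates 2, 3 and 4 labelled knockout gave 0, 5 and 6 counts, against 16, 31 and 12 in wild-type replicates 1, 2 and 4. Its log2 fold changes of -2.68 (SE 1.18) after LPS and -2.28 (SE 1.13) in naive cultures did not pass (adjusted p = 0.428 and 0.765, edgeR). Ms4a2, the beta chain, summed to 28 counts in LPS-treated cultures labelled knockout and 16 in LPS-treated wild-type cultures, and 24 of the 28 came from LPS-treated replicate 4 labelled knockout. In naive cultures it summed to 13 counts in those labelled knockout and 9 in wild-type ones. With no filter on low counts, its log2 fold change of labelled knockout over wild-type was 0.51 after LPS and 0.57 in naive cultures. Neither passed in edgeR.

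No member passed for genotype in dendritic cells, neither after LPS (0% of all 16965 genes in edgeR, with 1914 genes at an unadjusted p under 0.05) nor in naive cultures (0%, with 1139 genes). DESeq2 called 228 genes higher and 154 lower after LPS, Prss34 among the lower, and 46 higher and 31 lower in naive cultures with no member. In TMM-scaled CPM 4 members, Prss34, Mcpt8, Cpa3 and Fcer1a, were lower in every library labelled knockout than in every wild-type library of the same state. This held after LPS (8.57% of all tested genes) and in naive cultures (6.48%), while Ms4a2, the other defining gene, overlapped in both. Averaged over both states, a comparison chosen after the values were seen, the log2 fold change was -1.27 (SE 0.34) for Prss34, -1.10 (SE 0.30) for Mcpt8, -1.07 (SE 0.44) for Cpa3 and -2.48 (SE 0.82) for Fcer1a. None of the 8 members passed there in edgeR (adjusted p = 0.142, 0.145, 0.310 and 0.208 for these 4), where 0.0884% of all genes passed and 2388 had an unadjusted p under 0.05. DESeq2 called Prss34 (adjusted p = 0.0145) and Mcpt8 (0.0179), among 469 genes higher and 269 lower. With the plain library size, Prss34 and Mcpt8 were lower in all 6 libraries labelled knockout than in all 6 wild-type libraries, as were 0.159% of all tested genes. In TMM-scaled CPM none of the 8 members did so, with 0.183% of all tested genes. Without the 3 libraries labelled knockout that held over 100 Gpr34 counts, the averaged log2 fold change was -1.12 for Prss34 and -1.23 for Mcpt8, with 1 culture of that label after LPS.

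Hdc, Kit and Gata2 had smaller values, of mixed sign between the states. Between LPS-treated cultures labelled knockout and wild-type ones, the log2 fold change was -0.11 for Hdc (95% interval -0.56 to 0.34), 0.02 for Kit (-0.58 to 0.63) and -0.18 for Gata2 (-1.02 to 0.65). In naive cultures it was 0.52 for Hdc (0.0046 to 1.04, unadjusted p = 0.0483), -0.35 for Kit (-0.95 to 0.25) and 0.26 for Gata2 (-0.57 to 1.09), and none of these passed (adjusted p = 0.741 to 0.990 over the 6 values, edgeR). Without the 3 libraries labelled knockout that held over 100 Gpr34 counts, the naive value of Hdc was 0.15, with 2 cultures of that label. Gata2 stood at 5.13, 2.58 and 5.79 CPM in LPS-treated replicates 2, 3 and 4 labelled knockout and at 4.32, 6.70 and 4.297 CPM in LPS-treated wild-type replicates 1, 2 and 3. In naive cultures it stood at 4.54, 2.33 and 3.85 CPM in replicates 2, 3 and 4 labelled knockout and at 1.83, 3.57 and 3.55 CPM in wild-type replicates 1, 2 and 4. Replicate 3 labelled knockout was the lowest of its group in each state for Gata2 and for the defining sum.

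Il4 was rare in every culture. In cultures labelled knockout, LPS-treated replicates 2, 3 and 4 gave 16, 3 and 12 Il4 counts, against 2, 1 and 0 in naive replicates 2, 3 and 4. These groups did not overlap, as was so, with LPS higher, for 21.3% of all tested genes. In wild-type cultures, LPS-treated replicates 1, 2 and 3 gave 6, 1 and 8 Il4 counts, against 0, 6 and 7 in naive replicates 1, 2 and 4. The log2 fold change in cultures labelled knockout was 3.71 (SE 1.37) and did not pass in edgeR (adjusted p = 0.0654), while DESeq2 gave an adjusted p of 0.0398. In wild-type cultures it was 1.08 (SE 1.22, adjusted p = 0.546, edgeR). T cells also make Il4, and 10 T cell markers summed to 54.7 to 61.2 CPM in LPS-treated and 36.7 to 47.4 CPM in naive cultures labelled knockout. Il7r, which other cells also express, made most of these sums, at 46.1 to 54.5 CPM in LPS-treated and 29.3 to 37.5 CPM in naive cultures labelled knockout. It was the only 1 of 6 tested markers that passed there, where 28.7% of all genes passed. Cd3d and Trac, which define T cells, were at 0 in all 6 of these cultures. The other 8 markers, Cd3e and Cd3g among them, had reads in at least 1 library of the LPS-treated and of the naive group.

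**Figure D3:**
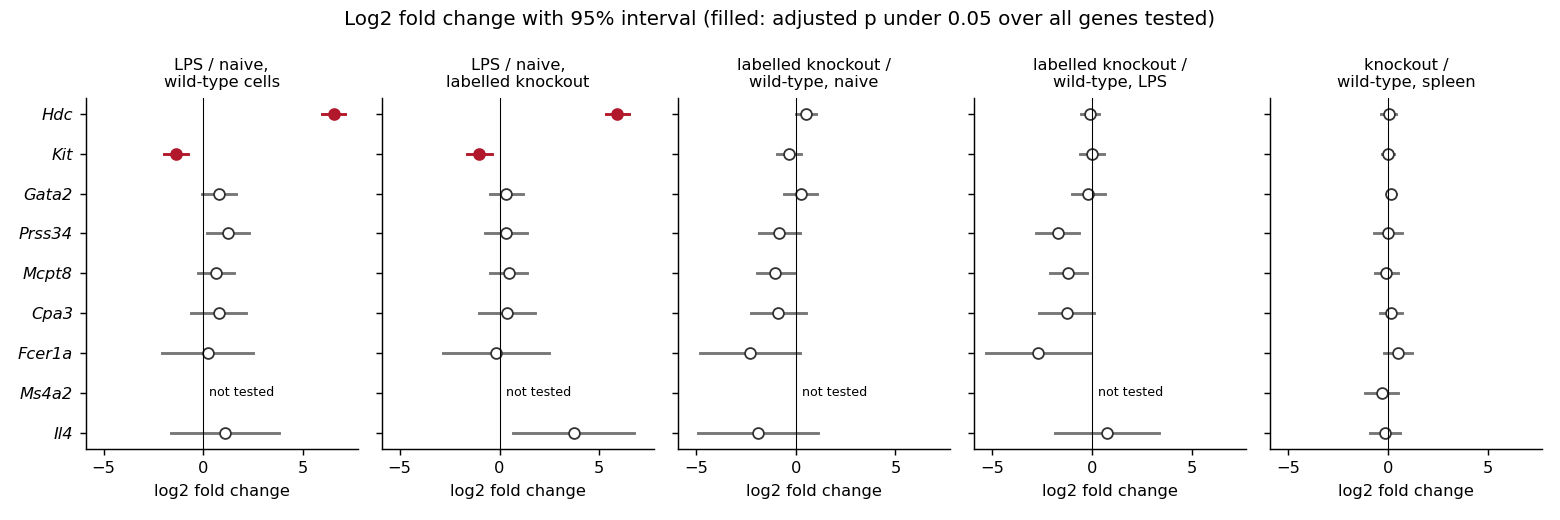
Log2 fold change of each gene with its 95% interval in 5 comparisons, with the group on top of the ratio named first and filled points for an adjusted p under 0.05 over all genes tested (edgeR). Hdc and Kit are filled in the LPS comparisons, at 5.90 and -1.01 in cultures labelled knockout and at 6.53 and -1.38 in wild-type cultures, and no point is filled between genotypes.

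Per kilobase of exon, the order of the members shifted with the state of the culture. In LPS-treated cultures labelled knockout, Hdc was first at 22.8 CPM per kb, then Kit at 2.20 and Cpa3 at 1.14, and in LPS-treated wild-type cultures Hdc was first at 24.7, then Cpa3 at 2.72, Prss34 at 2.17, Kit at 2.16 and Mcpt8 at 1.84 CPM per kb. In naive cultures labelled knockout, Kit was first at 4.44 and Cpa3 second at 0.880 CPM per kb, with Hdc sixth at 0.378, and in naive wild-type cultures Kit stood at 5.65, Cpa3 at 1.61 and Hdc, seventh, at 0.266 CPM per kb. The first place was outside the SD of the next gene in all 4 groups, while Cpa3, Prss34, Kit and Mcpt8 in LPS-treated wild-type cultures each lay within the SD of a neighbour. Fcer1a, Ms4a2 and Il4 were below 0.4 CPM per kb in every dendritic cell group.

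Genes that degrade or sense histamine were lower with LPS where they passed. Of 6 tested genes of that list, Hdc rose and 2 fell in each genotype, while 28.7% of all genes passed in cultures labelled knockout and 33.9% in wild-type cultures. Aoc1, the histamine-degrading diamine oxidase, fell to 3.84 ± 1.24 CPM in LPS-treated cultures labelled knockout, against 15.8 ± 1.47 CPM in naive ones (SD, n = 3 each; log2 fold change -2.03, adjusted p = 0.00133, edgeR). In wild-type cultures it stood at 3.04 ± 1.53 CPM with LPS and 24.8 ± 2.10 CPM without (SD, n = 3 each; -3.02, adjusted p = 0.000113, edgeR). Hnmt, which methylates histamine, had -1.75 without passing in cultures labelled knockout (adjusted p = 0.0915, edgeR) and fell in wild-type cultures (-2.32, adjusted p = 0.0310). The receptor gene Hrh2 fell in cultures labelled knockout (-1.75, adjusted p = 0.0365, edgeR) and had -0.99 in wild-type cultures (adjusted p = 0.181). Hrh1 and the granule transporter gene Slc18a2 passed in neither, and Hrh3 and Hrh4 were not tested, with Hrh3 at 0 in all 12 cultures.

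Of the 11 tested genes of type 2 cytokines and their receptors, 2 rose and 1 fell with LPS in cultures labelled knockout, and 4 rose in wild-type cultures. Over all genes 28.7% and 33.9% passed in these comparisons. Il33, an alarmin that acts on mast cells and basophils, stood at 2.91 ± 0.724 CPM with LPS and 0.246 ± 0.213 CPM without in cultures labelled knockout (SD, n = 3 each), with log2 fold changes of 3.54 there and 2.98 in wild-type cultures (adjusted p = 0.0143 and 0.0230, edgeR). In cultures labelled knockout Il3ra, the receptor for interleukin 3, rose by 0.54 and Il1rl1, the receptor for interleukin 33, fell by 2.07 on the log2 scale (adjusted p = 0.00870 and 0.0234, edgeR). In wild-type cultures the other 3 that rose were Tslp, another alarmin, at 5.01 (3.01 without passing in cultures labelled knockout, adjusted p = 0.0624), Il3ra at 0.85, and Il13ra1 at 0.46 (adjusted p = 0.0126, 0.000498 and 0.00639, edgeR). Il13 had 3.03 in cultures labelled knockout and 3.80 in wild-type cultures and did not pass (adjusted p = 0.144 and 0.0697, edgeR), and Il4ra, Crlf2, Csf2rb and Csf2rb2 did not pass in either. Il3 and Il5 were at 0 in all 12 cultures. Without composition factors, 1 rose and 3 fell in cultures labelled knockout, and 3 rose and 4 fell in wild-type cultures, so the balance of the list depends on the scaling.

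The signalling genes behind the IgE receptor changed in both directions. Of 14 tested, 3 rose and 2 fell with LPS in cultures labelled knockout, and 5 rose and 2 fell in wild-type cultures. The shares of all genes that passed were 28.7% and 33.9%. Without composition factors 2 rose and 4 fell in cultures labelled knockout, and 1 rose and 5 fell in wild-type cultures. Lcp2, an adaptor, rose, with a log2 fold change of 1.18 in cultures labelled knockout and 1.27 in wild-type cultures, as did the kinase gene Syk, with 0.64 and 0.50. Inpp5d, a phosphatase that dampens the signal, fell, with -1.06 in cultures labelled knockout and -0.995 in wild-type cultures, as did the adaptor Lat2, with -1.47 and -1.299 (adjusted p up to 0.0117 over these 8 values, edgeR). Plcg2 rose in each genotype (0.35 in cultures labelled knockout and 0.63 in wild-type cultures), and Fcer1g, the shared gamma chain (1.12), and Ptpn6 (0.48) rose in wild-type cultures. Lyn, Fyn, Lat, Gab2, Btk, Plcg1 and Fcer1a did not pass in either. The 15 genes of the list summed to 2064 to 2982 CPM over the cultures, where Fcer1a reached at most 0.515 CPM. These changes therefore cannot be placed in mast cells or basophils.

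Of 9 tested other basophil genes, none rose and 4 fell with LPS in cultures labelled knockout, and none rose and 3 fell in wild-type cultures. Among all genes 28.7% and 33.9% passed there in either direction. Alox5, which starts leukotriene synthesis, fell, with a log2 fold change of -3.10 in cultures labelled knockout and -4.20 in wild-type cultures, as did Il18r1, a receptor chain for interleukin 18, with -5.62 and -6.01 (adjusted p up to 0.000735, edgeR). Ptger3 (-3.21) and Cd63 (-0.57) fell in cultures labelled knockout, and Hpgds (-2.37) fell in wild-type cultures. These genes are also known from other myeloid cells. A list of 11 mast cell protease and receptor genes summed to at most 1.82 CPM in any culture. Only 2 of them could be tested, and neither passed with LPS in either genotype. Mcpt4, a granule protease of connective tissue mast cells, was at 0 in all 12 cultures. Tpsb2, another, stood at 0.440, 0.806 and 0.484 CPM in LPS-treated and 0.357, 0 and 0.225 CPM in naive wild-type libraries. In replicates 2, 3 and 4 labelled knockout it stood at 0, 0 and 0.895 CPM with LPS and 0, 0 and 0.0823 CPM without.

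In spleen no member passed the test for genotype. None of the 9 passed in edgeR, where 0.177% of 20371 genes passed and 3541 had an unadjusted p under 0.05, and DESeq2 called 451 genes higher and 432 lower with no member among them. All 9 members overlapped between the groups, but the share of all genes that did so was not counted. Kit stood at 12.8, 23.7 and 31.0 CPM (lowest, median and highest) in the 9 knockout spleens and at 17.3, 22.5 and 30.5 CPM in the 10 wild-type spleens, with a log2 fold change of 0.00 (95% interval -0.29 to 0.29). Hdc stood at 3.40, 6.54 and 8.81 CPM in knockout and 4.09, 6.79 and 9.92 CPM in wild-type spleens, with 0.04 (-0.34 to 0.42). Gata2 stood at 4.23, 5.41 and 7.29 CPM in knockout and 3.46, 4.81 and 5.66 CPM in wild-type spleens, with 0.17 (-0.06 to 0.40).

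The basophil proteases were detected in every spleen. Prss34 stood at 0.417, 2.12 and 3.83 CPM in knockout and 1.298, 1.71 and 3.43 CPM in wild-type spleens (lowest, median and highest), with a log2 fold change of -0.0017 (95% interval -0.70 to 0.70). Mcpt8 stood at 0.657, 0.916 and 1.72 CPM in knockout and 0.568, 0.900 and 1.78 CPM in wild-type spleens, with -0.07 (-0.63 to 0.48). In naive cultures, which like the spleens had no LPS, the values were -0.82 (-1.86 to 0.23) for Prss34 and -1.02 (-1.94 to -0.09) for Mcpt8. In LPS-treated cultures they were -1.71 (-2.78 to -0.65) and -1.18 (-2.11 to -0.26). The intervals in cultures and spleen overlapped, and a difference between the tissues was not tested. Fcer1a, Ms4a2 and Il4 had medians of 0.260, 0.327 and 0.506 CPM in knockout and 0.162, 0.386 and 0.580 CPM in wild-type spleens, and log2 fold changes of 0.50, -0.30 and -0.16 that did not pass (adjusted p = 0.456, 0.711 and 0.838, edgeR).

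**Figure D4:**
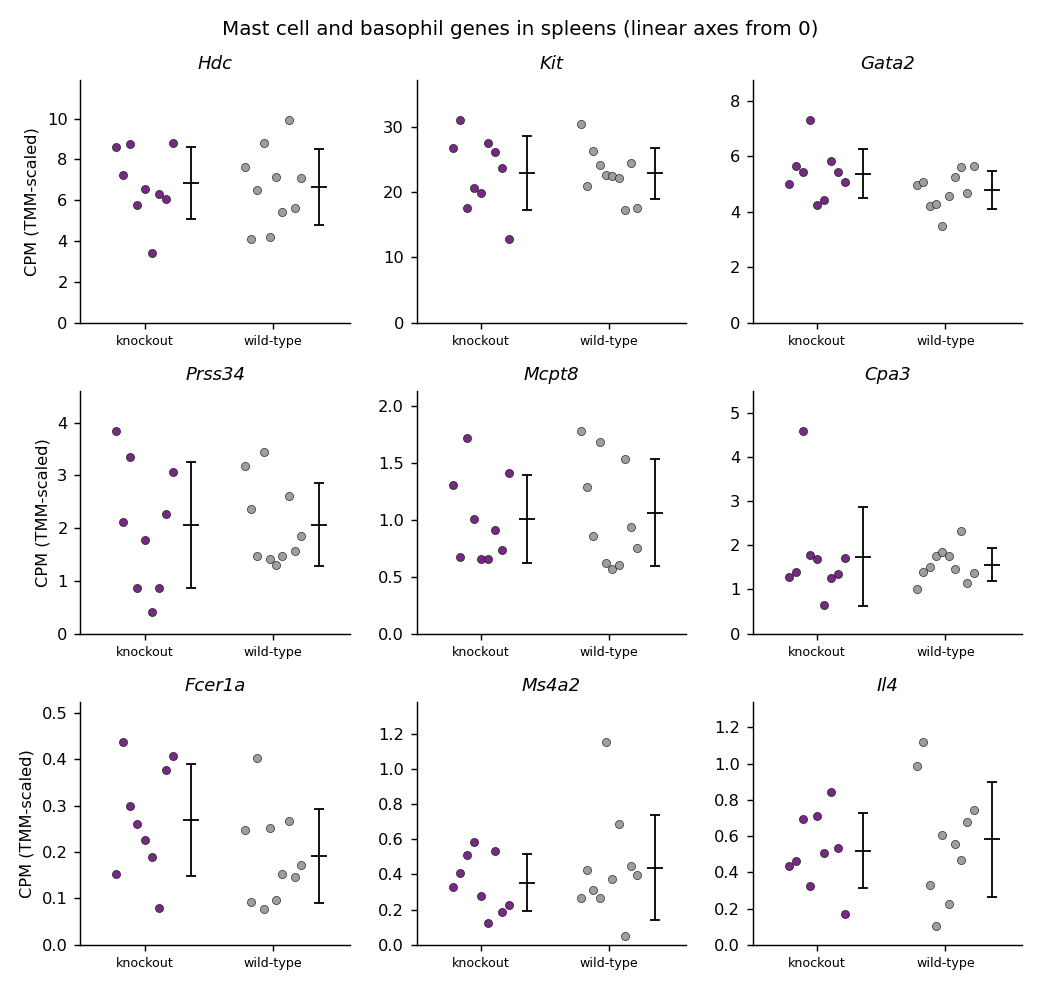
Level of the 9 genes in 9 knockout (left) and 10 wild-type spleens (right), in TMM-scaled CPM on linear axes from 0, with 1 point per spleen and a bar for the mean and SD. The groups overlap for every gene, and 1 knockout spleen holds Cpa3 at 4.58 CPM.

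Cpa3 stood at 0.645, 1.39 and 4.58 CPM in knockout and 1.01, 1.49 and 2.33 CPM in wild-type spleens, with a log2 fold change of 0.16 (95% interval -0.39 to 0.71). The highest value was that of knockout spleen 3, and the next knockout spleen had 1.78 CPM. Without spleen 3 the log2 fold change of Cpa3 was -0.17 and did not pass either. That spleen was also the highest of all 19 for Tpsb2 at 4.46 CPM, Cma1 at 3.16 CPM and Mcpt4 at 2.58 CPM, which encode connective tissue mast cell proteases. The list of 11 mast cell protease and receptor genes summed to 21.6 CPM there, to 3.12 to 10.6 CPM in the other knockout spleens and to 4.88 to 12.0 CPM in the wild-type spleens. Tpsb2, Cma1 and Mcpt4 made only part of these sums. None of the 5 tested genes of the list passed for genotype.

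In spleen, Hdc in CPM was 0.733 to 1.75 times the defining sum. That sum was 2.03 to 10.5 CPM in knockout and 4.09 to 7.21 CPM in wild-type spleens, and the ratio of Hdc to it was 0.836 to 1.72 in knockout and 0.733 to 1.75 in wild-type spleens. Knockout spleen 6 had the lowest sum (2.03 CPM) and the lowest Hdc (3.40 CPM) of the 19. Per kilobase of exon, Kit was first in spleen, at 2.57 CPM per kb in knockout and 2.56 in wild-type, then Prss34 at 1.69 in each. The SD ranges of Kit and Prss34 overlapped. Cpa3, Hdc, Mcpt8 and Gata2 followed with overlapping SD ranges, at 1.149, 1.07, 1.01 and 0.994 CPM per kb in knockout and 1.03, 1.04, 1.07 and 0.884 in wild-type spleens. Il4, Fcer1a and Ms4a2 came last, at 0.424, 0.270 and 0.126 CPM per kb in knockout and 0.474, 0.191 and 0.155 in wild-type spleens.

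The genes nearest to Mcpt8 in profile over the 19 spleens, among 14231 genes, were Palmd (0.40), Gstm2 (0.40), Anxa1 (0.41), Tiam1 (0.41) and Sh3bp4 (0.41), by the same root mean square difference. No member was among these 5, and Fcer1a and Ms4a2, under the minimum mean of 0.5 CPM, could not be. The distances were not set against the scatter of Mcpt8 itself, so they do not show that these genes vary together with it. Of the gene lists tested in spleen, those of histamine (7 tested), IgE signalling (15), type 2 cytokines and receptors (10) and other basophil genes (11) had no gene that passed for genotype in edgeR. The 8 erythroid markers varied widely between spleens, summing to 16833 to 126936 CPM in knockout and 12173 to 59458 CPM in wild-type spleens, and their part in the members' values was not tested.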

How the data were processed

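The authors deposited whole-number read counts per Ensembl gene for each library, not normalized. TopHat 1.3.3, SAMtools, bedtools, DESeq and build mm9 are named without roles, per the submitters' processing notes; for the annotation, strand and multi-mapped reads, the setting was not given in the sources used here. Of counts up to 200, 57.8 to 62.1% were even, so single counts cannot all stand for separate molecules. A gene that a library did not list was taken as 0. No 2 libraries of the same group agreed within sampling noise (93 pairs), and libraries of different groups were not compared in this way.

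edgeR 4.0.16 in R 4.3.3 was used with its filter on low counts, TMM factors, robust quasi-likelihood fits and Benjamini-Hochberg adjustment at 0.05 over all genes tested, in a fit of 12 dendritic cell libraries (4 group means) and a fit of 19 spleens. Tissues were not tested against each other. Intervals are 95%. Levels per kilobase use GENCODE M21 exon lengths, and names and promoters come from GRCm38 tables (26090 of 29120 IDs had a symbol), not from mm9. The microRNA genes Mir6949 and Mir7007 lie within Mcpt8 and Cpa3. The code was tested on simulated counts.

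Alternatives were DESeq2 1.42.0, RLE or no composition factors, no filter, fits of the compared libraries alone, a replicate block, each library left out, and the 3 cultures labelled knockout with over 100 Gpr34 counts or knockout spleens 4, 6 and 9 left out. The average over naive and LPS-treated cultures was added after the data were seen. All 9 genes are named, with genes of other lists that passed and the 5 most alike genes for Hdc, Cpa3 and Mcpt8. The members, lists and rules were chosen with earlier results of these data known.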

Additional observations from a re-analysis of the deposited data

Results flagged for a closer look

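Among the members, 1 value stood far from the rest of its group. Cpa3 was 4.58 CPM in knockout spleen 3, against 1.78 CPM in the next knockout spleen, a gap that was 0.711 of the whole range of the 9 knockout spleens. There were 18 sets of spleen values tested (9 genes in knockout and wild-type spleens). Dixon's cut-off for such a gap flags about 1 set in 20 by chance if values are normally distributed, which was not checked. How often chance gives a gap as large as 0.711 was not computed. Without that spleen no member passed for genotype in edgeR, as with it.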

How the results depend on the processing

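Over the members' single values, 1032 values under alternatives kept direction and side of the threshold, 69 changed sign, 9 gained and 5 lost a call. Hdc passed with LPS under every alternative run, at 5.57 to 6.26 in cultures labelled knockout and 6.12 to 6.61 in wild-type cultures. DESeq2 called 1 member between genotypes after LPS and 2 in the average over both states, where edgeR called none. With only the compared libraries in the fit, 1 member passed for LPS in cultures labelled knockout, with Kit at -1.01 (adjusted p = 0.0610, edgeR). Leaving out 1 library gave 1 to 2 members there, with Kit at -1.30 to -0.75.

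Of all genes, DESeq2 called 46 higher and 31 lower between naive genotypes, 228 and 154 after LPS, 10 and 11 for the interaction, 469 and 269 for the average and 451 and 432 in spleen, against 0, 0, 0, 12 and 3, and 20 and 16 in edgeR. Without composition factors the LPS split was 1441 higher and 4986 lower in cultures labelled knockout and 1599 and 6128 in wild-type cultures, where TMM gave 2601 and 2274, and 3064 and 2679, and in spleen it was 7 and 183. Without the 3 libraries labelled knockout with over 100 Gpr34 counts, 1 LPS-treated culture labelled knockout remains and is taken to vary like the other groups; edgeR then called 5 higher and 1 lower after LPS, 2 and 1 for the interaction and 2 and 4 for the average. Without filter it called 1 lower between naive genotypes. Without knockout spleens 4, 6 and 9 it called 179 higher and 118 lower. The labels do not say what a replicate number marks. Same-numbered libraries correlated at -0.09 to 0.07 in cultures and -0.08 to 0.29 in spleens, where 5 of 9 pairs were over 0.1 and 4 of 9 correlated best with their own number. Since not every pair did so, the numbers were not taken as pairs, and whether they mark a shared source in spleen was not settled. With the replicate block it called 2153 and 1642 for LPS in wild-type cultures (3 members, with Gata2 at an adjusted p of 0.0304), 2310 and 1854 in cultures labelled knockout, 0 and 0 for the average, and 2 and 1 in spleen; the block changed no other member's call.

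The following values changed sign; none had passed, and the cause was not tested. Without composition factors, Fcer1a was -0.19 for LPS in wild-type cultures, Gata2 -0.0058 for LPS in cultures labelled knockout, and Kit -0.11 and Hdc -0.068 in spleen. Prss34 in spleen was 0.018 without filter, 0.00028 in DESeq2 and 0.20 without knockout spleens 4, 6 and 9, where Il4 was 0.082. Without the 3 libraries labelled knockout with over 100 Gpr34 counts, Mcpt8 was -0.14 and Fcer1a 0.29 for LPS in cultures labelled knockout, Kit -0.20 between genotypes after LPS, and Fcer1a 0.10 and Kit -0.13 for the interaction. With the replicate block, Cpa3 was -0.031 for LPS in cultures labelled knockout, Il4 -0.26 between genotypes after LPS, Gata2 -0.12 in the average, and Cpa3 -0.0042, Kit -0.062 and Il4 0.046 in spleen.

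Leaving out 1 library, the ranges that crossed 0 were, for LPS in wild-type cultures, -0.18 to 0.74 for Fcer1a. For LPS in cultures labelled knockout they were -0.21 to 0.79 for Mcpt8, -0.043 to 0.90 for Cpa3 and -0.76 to 0.64 for Fcer1a. Between genotypes they were -0.013 to 0.48 for Gata2 in naive cultures, -0.41 to 0.10 for Gata2 and -0.13 to 0.23 for Kit after LPS, and -0.093 to 0.18 for Gata2 in the average. For the interaction they were -0.84 to 0.16 for Mcpt8, -0.80 to 0.14 for Cpa3 and -0.94 to 0.48 for Fcer1a. In spleen they were -0.17 to 0.13 for Prss34, -0.21 to 0.036 for Mcpt8, -0.17 to 0.27 for Cpa3, -0.064 to 0.079 for Kit and -0.021 to 0.13 for Hdc. Depth limits Fcer1a, Ms4a2 and Il4 in the cultures most, where 3 counts or fewer occur in several libraries.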
